A study of Sus scrofa with 15 samples.

Results

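Implantation B was compared with implantation A in RNA of the penile corpus cavernosum of the pig. This erectile body is built of blood-filled spaces lined by endothelium within smooth muscle and collagen. The members were the 3 libraries titled implantation B and the 3 titled implantation A, 6 of the 15 libraries of the study. The other 9 form the groups defect, normal and ECs+ implantation, with 3 libraries each. All 15 come from polyadenylated RNA prepared with the TruSeq v2 kit, and the labels name the same tissue for every library. The labels give no genotype, strain, age, time or treatment for any group. They do not say what was implanted, how A and B differ, what ECs stands for or whether the 3 libraries of each group are different animals. The p-values therefore reflect no more than the variation seen between libraries, and that variation may be technical. The study's design sets implantation A beside defect and normal, and implantation B beside ECs+ implantation, so A against B is not a pair of that design. The labels give no batch. A difference of batch, sampling time or handling between the groups cannot be told apart from a difference of implant.

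Immediate early genes such as FOS, FOSB and EGR1 encode transcription factors that are transcribed within minutes of a growth factor, stretch, injury or stress signal and are silent again soon after. Fibroblasts of the tunica and trabeculae make the fibrillar collagens and proteoglycans that give the erect penis its stiffness, while the contractile proteins of trabecular smooth muscle hold it flaccid until nitric oxide and cyclic GMP relax them. Perilipin 1, the product of PLIN1, coats the lipid droplet of fat cells.

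Total counts ran from 18699034 to 19644793 in implantation A and from 17234169 to 19526875 in implantation B. Levels below are CPM, counts scaled to the library total after TMM scaling, which corrects library totals for the few genes that take many counts. Libraries of 1 group were close: the Pearson correlation of log2 CPM across genes was 0.992 to 0.993 within groups and 0.969 between them, and the biological coefficient of variation was 2.35% in A and 2.16% in B. A chi-square statistic per degree of freedom of 1.44 to 1.95 between libraries of 1 group showed more than sampling noise, against 73.8 to 80.0 between groups. RN18S, left over ribosomal RNA, took 0.144% to 0.228% of counts in A and 0.174% to 0.180% in B. The 10 most abundant genes took 12.9% of counts in each A library and 18.2% to 18.4% in the B libraries. Markers of smooth muscle (ACTA2, MYH11, DES, CNN1) and endothelium (PECAM1, CDH5, VWF, NOS3) and PDE5A were all detected in both groups. Other tissues with vessels hold them too, so their detection does not single out the labelled tissue. Of 18316 genes tested with edgeR's quasi-likelihood test at a Benjamini-Hochberg adjusted p under 0.05, 9307 (50.8%) differed, 4978 (27.2%) higher in B and 4329 (23.6%) lower. The libraries of the groups did not overlap for 61.0% of genes. A stricter rule, the same threshold with at least a 2-fold change and no overlap, called 1581 genes (8.63%), 820 higher (4.48%) and 761 lower (4.15%). Calls higher in B made up 53.5% of all calls with TMM factors, 45.4% with RLE factors, 43.9% with upper quartile factors and 21.9% with library totals alone. On the deposited TPM they made up 28.6% with a pseudocount of 1. Scaling by library totals moved the median log2 fold change of all genes from 0.00 to -0.25, and differences smaller than that can change direction with the scaling.

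Immediate early and inflammatory transcripts were higher in B, as were most fibrillar collagens and matrix proteoglycans, while contractile smooth muscle transcripts and the lipid droplet genes PLIN1 and PLIN4 were lower. Over all genes the median log2 fold change was 0.00. The median was 1.87 for 27 immediate early genes, 0.81 for 26 matrix glycoproteins and proteoglycans, 0.65 for 14 fibrillar collagens, -0.77 for 24 contractile genes and -0.23 for 20 adipocyte markers.

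**Figure D1:**
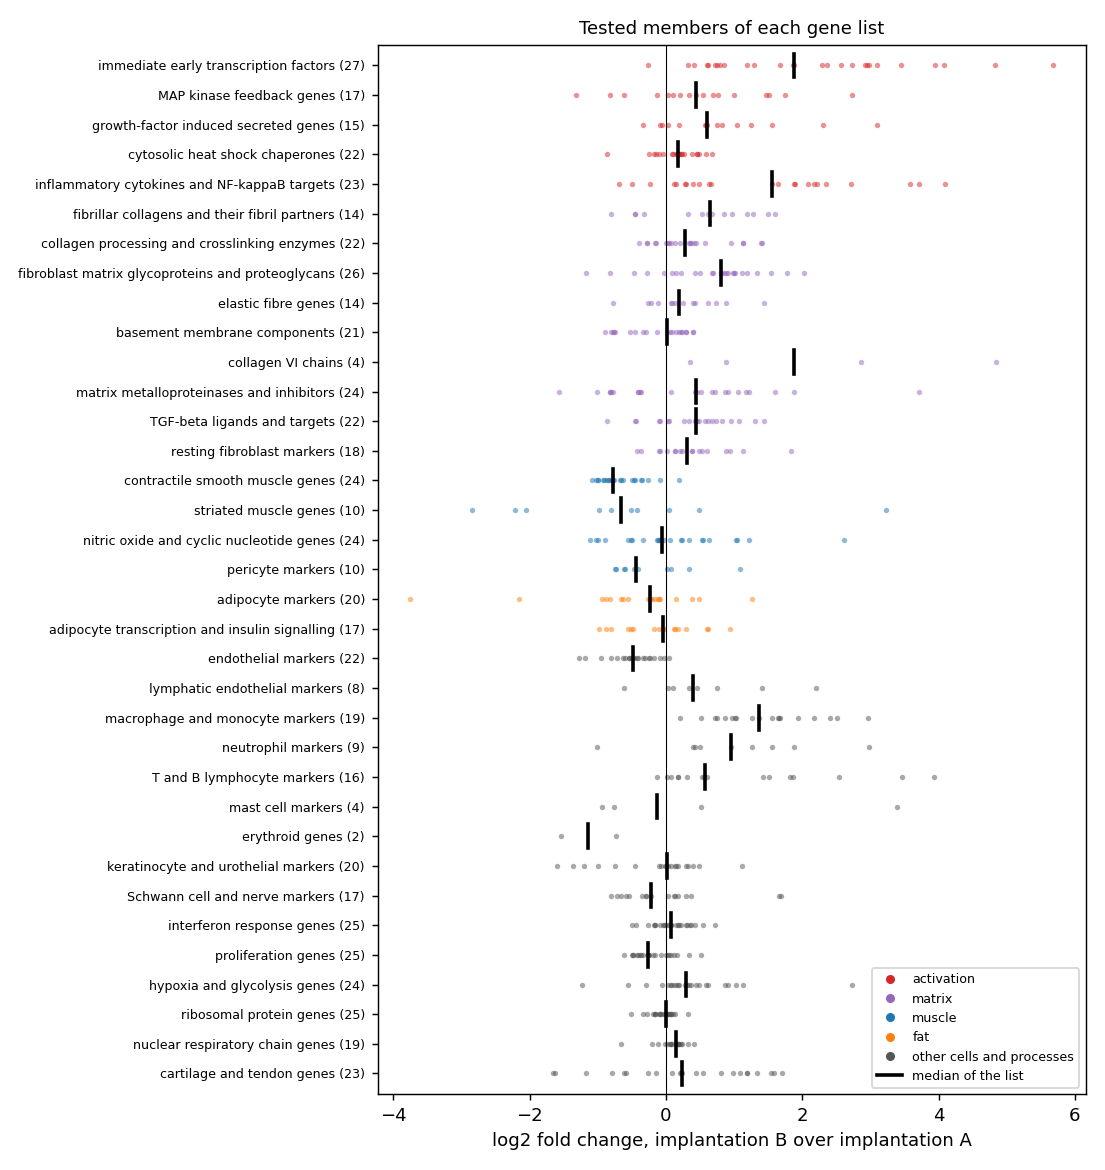
Log2 fold change of implantation B over implantation A (x axis) for every tested member of 35 gene lists (rows, number of tested members in brackets). Each dot is a gene, coloured by theme, and each black bar is the median of its list; the immediate early list reaches 5.68 and its median lies at 1.87, while the contractile list has its median at -0.77.

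FOSB, a partner in the AP-1 transcription factor, showed the largest rise among genes with a symbol and a mean log2 CPM of at least 3. It lies on chromosome 6 from 51836780 to 51844531 (build Sscrofa11.1). FOSB stood at 51.7, 53.2 and 50.7 CPM in the A libraries and at 2638, 2685 and 2685 CPM in the B libraries. Every B library was thus far above every A library, and the spread within either group was small beside the gap. The fitted log2 fold change was 5.68 ± 0.053 (SE), a 51.4-fold difference, with an adjusted p of 1.85e-73 in edgeR's quasi-likelihood test.

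FOS, the founding member of the same family, stood at 89.4, 84.3 and 81.2 CPM in A and at 2407, 2420 and 2425 CPM in B. The groups did not overlap, and the log2 fold change was 4.83 ± 0.051 (SE; adjusted p 1.17e-69, edgeR). EGR1, a zinc finger factor on chromosome 2 from 140440829 to 140445302, stood at 145, 148 and 155 CPM in A and at 2531, 2567 and 2493 CPM in B. All B libraries were again above all A libraries, by 16.9-fold (log2 4.08 ± 0.048 SE, adjusted p 1.14e-66, edgeR). Compared per length, in the deposited TPM, the order in B differed from that in CPM: FOS reached 4293 ± 30.6 TPM (SD, n = 3), above EGR1 at 1101 ± 18.0 and FOSB at 926 ± 12.6.

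The rise extended over nearly the whole list. Of 27 immediate early genes tested, 26 were higher in B, against 27.2% of all genes, and 18 were at least 2-fold higher without overlap, against 4.48% of all genes. BTG2, an antiproliferative early gene, was higher by 3.95 on the log2 scale, EGR2 by 3.45, and NR4A2, an orphan nuclear receptor, by 3.10. IER3 followed at 2.97, JUNB at 2.95 and EGR3 at 2.92. ZFP36, whose protein promotes decay of cytokine messages, was higher by 2.72, ATF3, a stress-induced factor, by 2.57 and KLF4 by 2.28. JUN, the main partner of FOS, moved less, from 302 ± 2.28 CPM in A to 961 ± 1.33 CPM in B (SD, n = 3; log2 1.67). FOSL1 (0.72) and KLF10 (0.32) were also called higher, and both lost the call with library totals alone. The exception was SRF, the factor that drives many early genes through the serum response element, at 104 ± 0.912 CPM in A and 86.1 ± 3.73 CPM in B (SD, n = 3; log2 -0.27, adjusted p 8.34e-06, edgeR). EGR4 had too few counts to be tested.

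**Figure D2:**
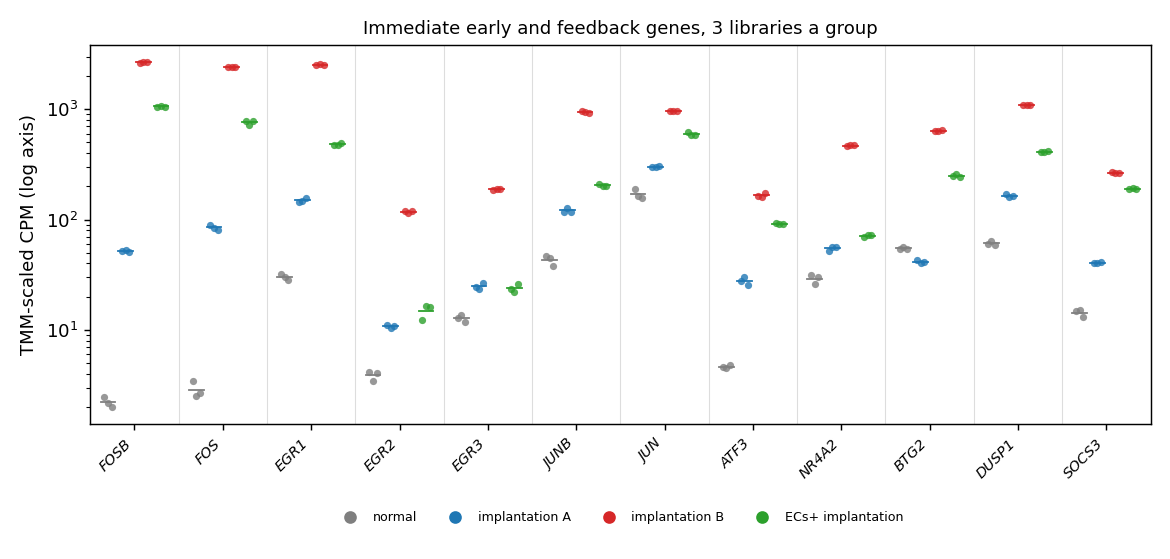
TMM-scaled CPM (y axis, log scale) of 12 immediate early and feedback genes in normal, implantation A, implantation B and ECs+ implantation, with 1 dot a library and a line at the mean of 3. The B libraries lie above the A libraries for every gene shown, from 3.18-fold for JUN to 51.4-fold for FOSB.

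The other groups place these levels. FOSB averaged 2.22 ± 0.229 CPM in normal tissue and 1062 ± 14.3 CPM in ECs+ implantation (SD, n = 3), so implantation A lay between normal and ECs+ implantation, and implantation B above both. Sums were taken over 28 genes, the untested EGR4 among them. Their summed level was 1423 ± 96.7 CPM in normal, 2422 to 2455 CPM in A, 14944 to 15003 CPM in B and 5726 ± 22.9 CPM in ECs+ implantation. An exact two-sided permutation test of 3 libraries against 3 cannot go below 0.1, which is the value the sums of A and B gave. Against normal, 26 of the 27 tested genes were higher in B (37.1% of all genes were) and 22 were higher in A (32.2% of all genes). In ECs+ implantation 25 were lower than in B (35.3% of all genes) and 2 were higher (38.0% of all genes). These comparisons share libraries.

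Genes induced downstream of growth factor signalling showed a smaller and more mixed difference. Of 17 MAP kinase feedback genes, 11 were higher in B, against 27.2% of all genes. Lower were 3 (DUSP8, DUSP10 and ETV4), against 23.6%, and the median log2 fold change was 0.44. DUSP1, a phosphatase that switches off MAP kinases, led them with 164 ± 4.08 CPM in A and 1088 ± 8.22 CPM in B (SD, n = 3; log2 2.73 ± 0.045 SE, adjusted p 1.36e-58, edgeR). DUSP5 (1.74) and DUSP6 (1.51), which act on ERK, and SPRY1 (1.01), a receptor tyrosine kinase antagonist, were higher too. DUSP10, which acts on JNK and p38, was lower by 1.32 on the log2 scale (log2 -1.32). Of 15 growth-factor induced genes, mainly of secreted products, 11 were higher, against 27.2% of all genes, and SPHK1 alone was lower. The SPHK1 call was lost in 3 of the fits that left out 1 library (adjusted p up to 0.0714, edgeR). CYR61, a matricellular protein, rose from 64.9 ± 0.519 CPM in A to 320 ± 7.91 CPM in B (SD, n = 3; log2 2.30). The EGF receptor ligands AREG (3.10), HBEGF (1.25) and EREG (1.04) and the cytokine LIF (1.56) were also higher, although AREG rested on 2 to 9 counts a library in A and 37 to 49 in B. VEGFA, EDN1 and INHBA did not pass the test, with log2 fold changes of -0.05, 0.04 and -0.08.

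Inflammatory cytokines and targets of NF-kappaB were higher in B for 20 of 23 tested genes, against 27.2% of all genes, and 12 of them by at least 2-fold, against 4.48%. With limma-trend on TPM, 11 were higher with a pseudocount of 1 and 7 with 0.1. SOCS3, the feedback inhibitor of the IL-6 receptor pathway, stood at 40.4 ± 0.410 CPM in A and 267 ± 3.28 CPM in B (SD, n = 3; log2 2.72 ± 0.053 SE, adjusted p 4.7e-55, edgeR). The cytokines themselves were scarce. IL1B held 5, 2 and 3 counts in the A libraries and 63, 39 and 42 in the B libraries (log2 4.09), and IL6 held 10, 11 and 10 counts in A and 119, 98 and 118 in B (log2 3.71). CXCL8, a neutrophil attractant, held 1, 2 and 7 counts in A and 38, 25 and 39 in B (log2 3.59). In each of the 3 the groups did not overlap. SELE, the endothelial adhesion molecule that captures leukocytes, was higher by 2.35 on the log2 scale, PTGS2, the inducible cyclooxygenase, by 2.22, and TNF by 2.18. The chemokines CXCL12 (-0.69) and CXCL10 (-0.50) were lower.

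Heat shock chaperones moved little. Of 22 tested, 13 were higher in B, against 27.2% of all genes. HSPA1L, HSPB1, CRYAB and HSPE1 were lower, against 23.6%, and the median log2 fold change of the list was 0.18. With library totals alone, 6 were higher and 7 lower. HSPA8, the constitutive Hsp70, had the largest rise, at 0.68, HSPA1L was at -0.87, and HSPH1 did not pass (log2 -0.10, adjusted p 0.174, edgeR).

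Fibrillar collagen transcripts were abundant in both groups and more so in B. COL1A1, the α1 chain of type I collagen, stood at 41798, 41687 and 42086 CPM in the A libraries and at 81352, 81553 and 83568 CPM in the B libraries. All B libraries were above all A libraries (1.96-fold, log2 0.97 ± 0.065 SE, adjusted p 5.78e-22, edgeR). As a share of all counts, with no TMM scaling, COL1A1 took 4.40% to 4.42% in A and 7.21% to 7.39% in B. The 161 genes of the matrix lists together took 16.7% of counts in each A library and 23.3% to 23.6% in the B libraries.

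COL1A2, the partner chain in type I collagen, stood at 14204 ± 94.1 CPM in A and 34434 ± 305 CPM in B (SD, n = 3; log2 1.28 ± 0.061 SE). COL3A1 followed with 9889 ± 4.87 CPM in A and 17896 ± 165 CPM in B (log2 0.86). In all, 10 of 14 fibrillar collagens and fibril partners were higher in B, against 27.2% of all genes, and 4 were at least 2-fold higher, against 4.48%. COL14A1, which sits on the fibril surface, had the largest rise (3.04-fold), followed by COL11A1 (2.83-fold), a minor chain that sets fibril diameter. COL2A1, the main cartilage collagen, was higher by 1.19 on the log2 scale, and COL12A1 by 0.68. The 4 lower members were the minor chains COL5A3 (-0.80), COL11A2 (-0.45), COL27A1 (-0.45) and COL24A1 (-0.33). The summed level of the 14 was 16528 ± 338 CPM in normal tissue (SD, n = 3), 70728 to 71003 CPM in A, 141758 to 144640 CPM in B and 16814 ± 68.9 CPM in ECs+ implantation. The defect libraries held 133764, 142339 and 165227 CPM, above A and overlapping B. The first 2 of these were far shallower, while the third, with 17703564 counts, was not.

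**Figure D3:**
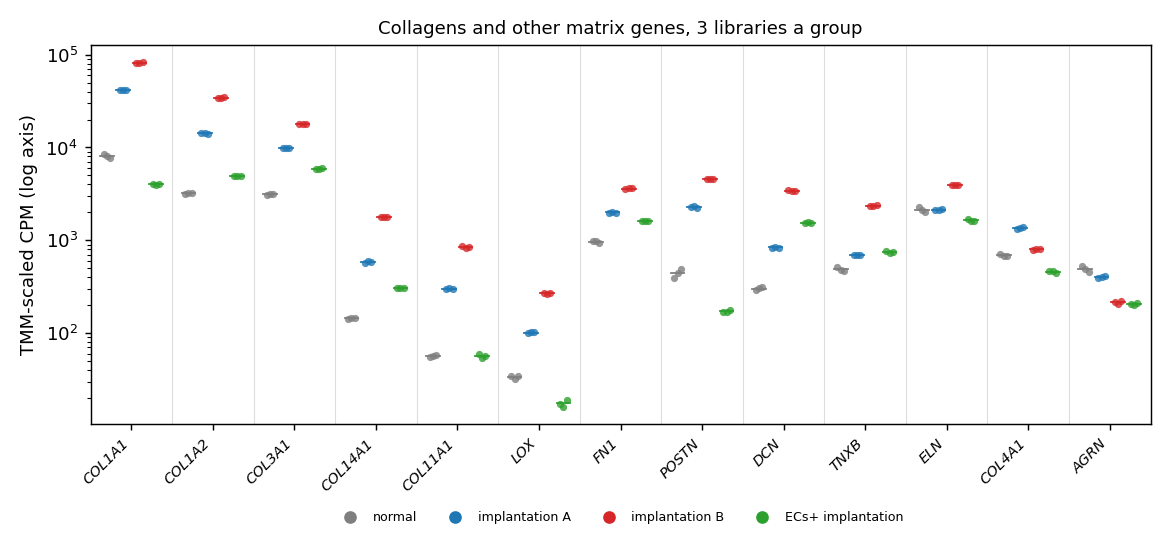
TMM-scaled CPM (y axis, log scale) of 13 matrix genes in normal, implantation A, implantation B and ECs+ implantation, with 1 dot a library and a line at the mean of 3. The B libraries lie above the A libraries for 11 genes, by up to 4.06-fold for DCN, and below them for COL4A1 and AGRN.

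Enzymes that process collagen differed less evenly. Of 22 tested, 12 were higher in B, against 27.2% of all genes, and LOXL1, LOXL2, P4HA2 and BMP1 were lower. LOX, which crosslinks collagen and elastin, rose from 101 ± 1.70 CPM in A to 269 ± 3.66 CPM in B (SD, n = 3; log2 1.41), and ADAMTS2, the procollagen N-proteinase, from 189 ± 2.98 to 500 ± 7.07 CPM (log2 1.40). P4HA1, a prolyl hydroxylase subunit, and PCOLCE2, an enhancer of procollagen C-proteinase, were each higher by 1.13 on the log2 scale. With library totals alone the list held 10 higher and 10 lower members.

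Among 26 fibroblast glycoproteins and proteoglycans, 20 were higher in B, against 27.2% of all genes, 8 of them at least 2-fold, against 4.48%, and 4 were lower. DCN, the small proteoglycan decorin that binds collagen fibrils, stood at 834, 852 and 832 CPM in A and at 3454, 3410 and 3367 CPM in B. All B libraries were above all A libraries, by 4.06-fold (log2 2.02 ± 0.050 SE, adjusted p 1.94e-47, edgeR). TNXB, tenascin-X, was higher by 1.77 on the log2 scale, and KERA, the proteoglycan keratocan, by 1.54. COMP (1.34) and THBS4 (1.18), pentameric proteins of tendon and cartilage, followed. POSTN, periostin, stood at 2272 ± 44.4 CPM in A and 4556 ± 12.2 CPM in B, and FN1, fibronectin, at 1997 ± 15.1 and 3604 ± 40.6 CPM (SD, n = 3; 2.01-fold and 1.80-fold). The lower members were TNMD (-1.18), CTHRC1 (-0.82), ASPN (-0.46) and CILP2 (-0.27). TNMD, a tendon gene, thus moved opposite to COMP and THBS4.

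The remaining matrix lists were split. Of 14 elastic fibre genes, 8 were higher in B, against 27.2% of all genes, among them elastin itself (ELN, log2 0.89) and LTBP2 (1.45). FBN2, EFEMP2, MFAP2 and EMILIN1 were lower. All 4 collagen VI chains tested were higher: COL6A3 from 4679 ± 59.9 to 8624 ± 58.8 CPM and COL6A2 from 4227 ± 76.6 to 5394 ± 45.3 CPM (SD, n = 3). COL6A5 held 6, 8 and 15 counts in A and 228, 229 and 227 in B (log2 4.84), and COL6A6 was higher by 2.87 on the log2 scale. Basement membrane components did not follow the fibrillar collagens and had a median log2 fold change of 0.02. Of 21 tested, 7 were higher, a share not far from the 27.2% of all genes, and 10 were lower, against 23.6%. AGRN, agrin, was lower (log2 -0.90), as were COL18A1 (-0.78) and the main chains of type IV collagen, COL4A1 (-0.76) and COL4A2 (-0.53). With library totals alone, 2 basement membrane genes were higher and 13 lower.

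Matrix metalloproteinases and their inhibitors were higher for 11 of 24 genes, against 27.2% of all genes, and lower for 9, against 23.6%. MMP3, stromelysin 1, stood at 20.0, 22.2 and 20.3 CPM in A and at 276, 268 and 275 CPM in B, with no overlap (log2 3.71 ± 0.060 SE, adjusted p 1.7e-61, edgeR). ADAMTS1 (1.59), MMP16 (1.22) and MMP12 (1.18) were higher, whereas MMP25 (-1.57) and MMP9 (-1.01), both known from neutrophils, were lower. Of 22 TGF-beta ligands and targets, 15 were higher, against 27.2% of all genes, and SMAD7, GREM1 and ID1 were lower. TGFBI, a secreted TGF-beta target, was higher by 1.31 on the log2 scale, TGFB2 by 0.68 and TGFB3 by 0.34, while TGFB1 did not pass (-0.10). The TGFB3 call was lost with library totals alone. Markers of resting fibroblasts were higher for 13 of 18 genes, against 27.2% of all genes, with C7 at 1.84 and PDGFRA at 0.48. SCARA5 and CLEC3B were lower. The summed level of the list, most of it GSN, overlapped between the groups with TMM factors, at 20214 to 20678 CPM in A and 20293 to 20847 CPM in B. Scaled by library totals alone it was lower in B, at 21344 to 21766 CPM in A and 17995 to 18423 CPM in B.

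Contractile smooth muscle transcripts were lower in B almost without exception. ACTA2, smooth muscle α-actin, on chromosome 14 from 100868145 to 100886732, stood at 1583, 1578 and 1558 CPM in the A libraries and at 741, 724 and 757 CPM in the B libraries. All B libraries were below all A libraries, by 2.12-fold (log2 -1.09 ± 0.048 SE, adjusted p 9.62e-32, edgeR). Of 24 contractile genes, 22 were lower in B, against 23.6% of all genes, and ACTA2 and KCNMB1, the β1 subunit of the BK potassium channel, passed the 2-fold rule, against 4.15% of all genes. In bulk RNA, fewer smooth muscle cells and less of this RNA per cell cannot be told apart.

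MYH11, the smooth muscle myosin heavy chain, stood at 1891 ± 22.6 CPM in A and 1097 ± 4.77 CPM in B (SD, n = 3; log2 -0.78 ± 0.048 SE, adjusted p 3.52e-24, edgeR). CNN1, calponin (-1.0), TAGLN, transgelin (-0.99), MYL9 (-0.93) and SMTN (-0.90) differed by nearly as much as ACTA2. MYOCD, the coactivator that works with SRF on these genes, was lower by a similar step (-0.77). The intermediate filament gene DES (-0.66), PLN, which regulates the calcium pump (-0.36), and CALD1 (-0.35) differed less. The PLN call was lost without implantation B replicate 3 (adjusted p 0.0543, edgeR). SYNPO2 did not pass (log2 -0.09, adjusted p 0.132, edgeR), and SYNM was higher with TMM factors (0.19) but had the opposite sign with library totals alone and on the TPM.

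Beside normal tissue, most contractile genes were higher in A, and in B they were split. ACTA2 averaged 720 ± 18.8 CPM in normal and 948 ± 41.1 CPM in ECs+ implantation (SD, n = 3). It was higher in A than in normal (log2 1.13 ± 0.048 SE, adjusted p 6.39e-33, edgeR), while B against normal gave 0.04 ± 0.049 (adjusted p 0.463). Of the 24 genes, 21 were higher in A than in normal (32.2% of all genes were). B had 8 higher than normal (37.1% of all genes were) and 13 lower (36.7% of all genes were). Their summed level was 6796 ± 174 CPM in normal, 10081 to 10197 CPM in A, 5970 to 6015 CPM in B and 8204 ± 105 CPM in ECs+ implantation (SD, n = 3). The defect libraries lay at 5176 to 6414 CPM and overlapped B, with the 2 shallow ones at 5176 and 5397 CPM.

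Pericyte markers, genes of the cells around small vessels, were lower in B for 6 of 10, against 23.6% of all genes. RGS5 was at -0.75 and NOTCH3 at -0.47, while NDUFA4L2 (1.09) and CSPG4 (0.34) were higher. The nitric oxide and cyclic nucleotide genes that relax cavernosal muscle had no common direction. Of 24 tested, 8 were higher and 8 lower, against 27.2% and 23.6% of all genes. PDE5A, the phosphodiesterase that sildenafil inhibits, was higher in B, at 69.8 ± 2.44 CPM in A and 100.3 ± 3.87 CPM in B (SD, n = 3; log2 0.52). NOS3 (-0.51) and both guanylate cyclase subunits, GUCY1A3 (-0.50) and GUCY1B3 (-0.34), were lower, and the kinase PRKG1 did not pass (-0.04). PTGER2, a prostaglandin E2 receptor coupled to cyclic AMP, had the largest rise of the list, from 16.5 ± 0.889 to 101 ± 2.35 CPM (log2 2.61).

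Striated muscle genes were near absent, and 10 of 29 listed had enough counts to be tested. ACTC1, cardiac α-actin, stood at 4.99 ± 0.246 CPM in A and 1.07 ± 0.228 CPM in B (SD, n = 3; log2 -2.22). MYH7 (-2.85) and TNNC1 (-2.05) were lower too, from 22, 27 and 16 counts of MYH7 in A and 3, 1 and 3 in B. TNNT3, fast troponin T, was higher by 3.23 on the log2 scale. The summed level of the list did not separate the groups with TMM factors, at 32.2 to 33.8 CPM in A and 30.2 to 33.0 CPM in B. Scaled by library totals alone it did, at 34.1 to 35.6 CPM in A and 26.7 to 29.3 CPM in B.

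PLIN1 had the largest fold difference of the adipocyte genes tested. It lies on chromosome 7 from 55237517 to 55250797 and stood at 27.9, 27.3 and 27.3 CPM in the A libraries and at 2.08, 2.15 and 1.85 CPM in the B libraries, from 537 to 577 counts in A and 32 to 34 in B. The A libraries were thus all far above the B libraries, by 13.5-fold (log2 -3.76 ± 0.17 SE, adjusted p 1.22e-37, edgeR). PLIN1 averaged 33.8 ± 4.38 CPM in normal tissue and 9.55 ± 1.14 CPM in ECs+ implantation (SD, n = 3), and B was below both. PLIN4, another lipid droplet coat protein, stood at 15.3, 14.5 and 16.0 CPM in A and at 3.37, 3.20 and 3.71 CPM in B (log2 -2.15 ± 0.14 SE).

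The rest of the adipocyte list did not show a difference of that size. Of 20 markers tested, 11 were lower in B, against 23.6% of all genes, and G0S2, RBP4 and CFD were higher. The summed level of all 26 listed markers, tested or not, was 1045 to 1083 CPM in A and 816 to 834 CPM in B. PPARG, the master regulator of fat cell differentiation, was lower by a smaller step (log2 -0.88), as were CIDEC, a lipid droplet fusion protein (-0.93), FASN, fatty acid synthase (-0.56), and FABP4, the fatty acid binding protein (-0.65). The FABP4 call was lost with DESeq2. LPL, lipoprotein lipase, did not pass, at 34.6 ± 1.04 CPM in A and 38.4 ± 2.03 CPM in B (SD, n = 3; log2 0.15, adjusted p 0.0635, edgeR), nor did LIPE (-0.08) or CD36 (-0.16). RBP4, a retinol carrier, was higher by 1.27 on the log2 scale. The defining fat cell products were near the limit of detection: ADIPOQ, adiponectin, held 14, 5 and 14 counts in A and 2, 1 and 4 in B, and LEP, leptin, 3, 11 and 6 in A and 2, 5 and 1 in B, too few for either to be tested. Genes of fat cell transcription and insulin signalling had 6 of 17 higher and 6 lower, against 27.2% and 23.6% of all genes. SLC2A4, the insulin-responsive glucose transporter, was at -0.98. With library totals alone, 3 were higher and 11 lower.

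**Figure D4:**
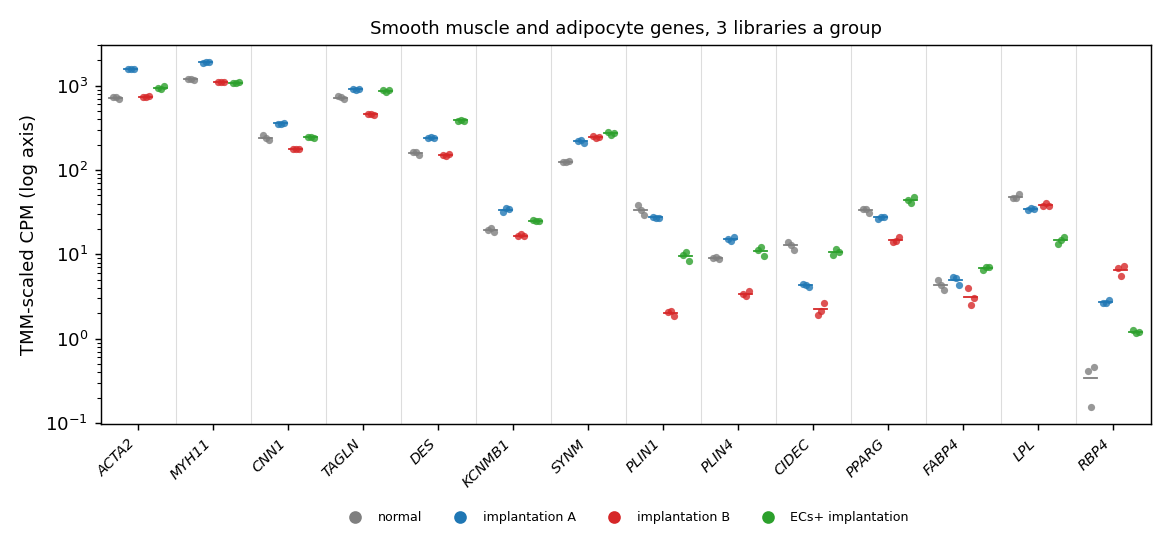
TMM-scaled CPM (y axis, log scale) of 7 smooth muscle and 7 adipocyte genes in normal, implantation A, implantation B and ECs+ implantation, with 1 dot a library and a line at the mean of 3. Among the muscle genes all but SYNM, whose sign changes with the scaling, are lower in B than in A, and PLIN1 shows the widest gap of the fat genes, 13.5-fold.

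Secreted and immune genes were among the largest rises. CHI3L1, a chitinase-like glycoprotein, stood at 5.22, 4.10 and 3.97 CPM in A and at 206, 198 and 195 CPM in B, with no overlap (log2 5.49 ± 0.11 SE, adjusted p 4.23e-52, edgeR). F13A1, the coagulation factor XIII A chain found in tissue macrophages, was higher by 3.68 on the log2 scale, JCHAIN, the joining chain of IgA and IgM, by 3.47, and MS4A2, the β chain of the IgE receptor, by 3.38. Among genes with a symbol whose groups did not overlap and whose log2 CPM averaged 3 or more, the 10 largest rises were FOSB, CHI3L1, FOS, EGR1, BTG2, MMP3, F13A1, JCHAIN, EGR2 and MS4A2.

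By the same limits, which leave out scarcer genes such as PLIN1 and MYH7, the 10 largest falls were smaller in size than the rises. ADIRF, named for adipogenesis, stood at 118, 116 and 114 CPM in A and at 18.8, 19.2 and 19.5 CPM in B (log2 -2.60 ± 0.069 SE, adjusted p 8.28e-48, edgeR). It did not follow PLIN1 in ECs+ implantation, where it reached 176 ± 5.64 CPM (SD, n = 3). MUC19, a gel-forming mucin (-2.58), APLN, the vascular peptide apelin (-2.54), S100A1 (-2.45) and ALDH3A1 (-2.33) came next. SLA-1, a class I histocompatibility gene, followed at -2.32, and its value is uncertain because near-identical copies share reads. COL9A3 (-2.23), ANGPT4, an angiopoietin (-2.11), SAMD14 (-1.99) and ZDBF2 (-1.99) completed them.

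Markers of other cell types differed between the groups as well. All 19 macrophage markers tested were higher in B, against 27.2% of all genes, and 13 of them at least 2-fold, against 4.48%. The summed level of all 20 listed macrophage markers, tested or not, was 653 to 659 CPM in A and 1578 to 1585 CPM in B. CD163, a scavenger receptor of tissue macrophages, stood at 18.3 ± 0.855 CPM in A and 96.9 ± 1.80 CPM in B (SD, n = 3; log2 2.40), with MRC1 at 2.51 and LYZ at 2.96. Of 16 lymphocyte markers 8 were higher in B, against 27.2% of all genes, led by the plasma cell genes POU2AF1 (3.93), JCHAIN (3.47) and MZB1 (2.54). The T cell genes CD3D, CD3E, CD3G and LCK did not pass. Neutrophil markers were higher for 8 of 9, against 27.2% of all genes, and for 1 with limma-trend on TPM with a pseudocount of 1. Their summed level was 1194 to 1234 CPM in A and 1722 to 1729 CPM in B. The part of these cells in the differences of inflammatory, early and matrix genes was not tested.

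Endothelial markers were lower in B for 19 of 22, against 23.6% of all genes, with a median log2 fold change of -0.48, and their summed level was 3552 to 3588 CPM in A and 2829 to 2854 CPM in B. EGFL7 (-1.28) and SOX18 (-1.18) passed the 2-fold rule and CDH5, VE-cadherin, was at -0.54, while PECAM1 (-0.03), VWF (-0.09) and MMRN2 (0.04) did not pass. All 22 were lower than in normal tissue in both A (31.5% of all genes were) and B (36.7% of all genes were). The sum was 6196 ± 167 CPM (SD, n = 3) in normal. Lymphatic markers went the other way, with 5 of 8 higher in B, against 27.2% of all genes, and LYVE1 at 2.20 and MMRN1 at 1.41. Mast cell genes were split, with MS4A2 higher and KIT (-0.93) and GATA2 (-0.77) lower.

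**Figure D5:**
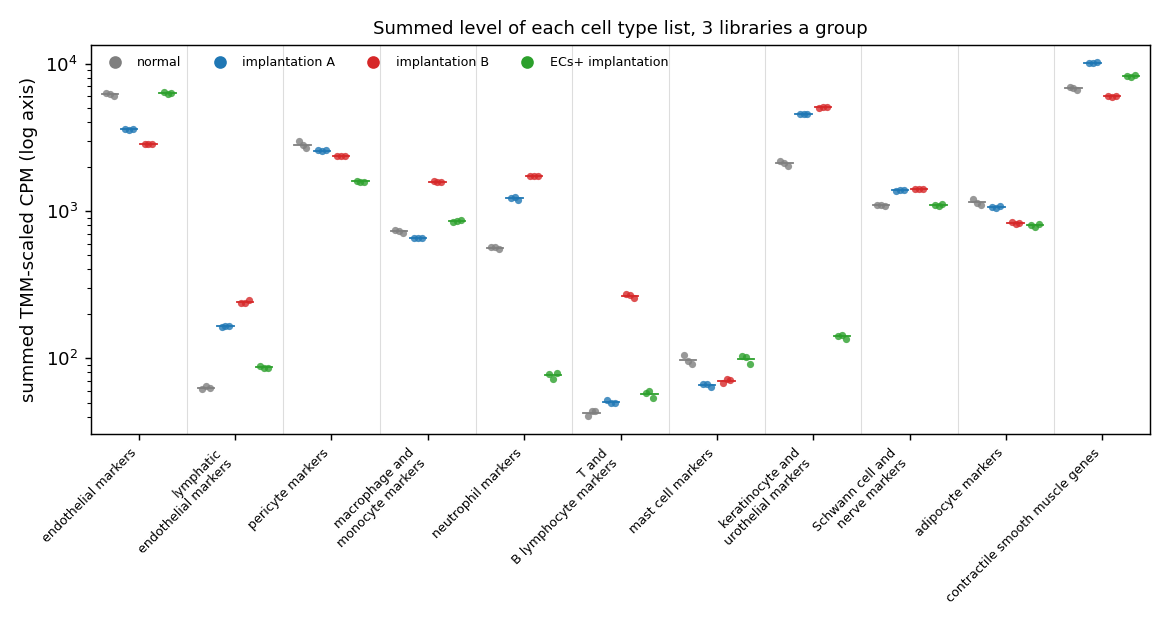
Summed TMM-scaled CPM (y axis, log scale) of 11 cell type lists in normal, implantation A, implantation B and ECs+ implantation, with 1 dot a library and a line at the mean of 3. From A to B the macrophage sum goes from at most 659 to at least 1578 CPM and the contractile smooth muscle sum from at least 10081 to at most 6015 CPM.

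Markers of surface epithelium and nerve had no common direction. The sum of keratinocyte and urothelial markers was 4520 to 4524 CPM in A and 4997 to 5076 CPM in B with TMM factors. With library totals alone the order was reversed, at 4754 to 4774 CPM in A and 4431 to 4497 CPM in B. The TMM-scaled sum was 2103 ± 76.1 CPM in normal and 140 ± 4.02 CPM in ECs+ implantation (SD, n = 3). Of 20 tested, 7 were higher and 5 lower, shares not far from the 27.2% and 23.6% of all genes. The simple epithelial keratins KRT18 (-1.59), KRT19 (-1.20) and KRT8 (-1.0) and the basal keratin KRT15 (-1.36) were lower, and KRT7 was higher (1.11). Of 17 Schwann cell and nerve markers, 6 were higher and 9 lower, against 27.2% and 23.6% of all genes. The neurofilament genes NEFM (1.68) and NEFL (1.66) were higher, whereas the Schwann cell factor SOX10 (-0.65) was lower.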

How the data were processed

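Polyadenylated RNA of 15 libraries was measured. The authors deposited raw gene counts and TPM values for 26654 genes. Per the submitters' processing notes, the tools were fastp, HISAT2, HTSeq and DESeq2 (no versions) and the build Sscrofa11.1. How TPM was made and whether strand was used in counting are not given in the sources used here. Overlapping genes on opposite strands may therefore share reads. Columns were matched to samples by title, since a description of the ECs+ implantation samples names a normal sample.

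The counts were fitted with edgeR 4.0.16 (R 4.3.3), all 15 libraries in one model (filterByExpr, TMM, robust glmQLFit, glmQLFTest, two-sided, Benjamini-Hochberg), so that the groups share one estimate of the spread. Of the 15, 2 defect libraries were shallow (207769 and 250178 counts). Fold changes are fitted values, and SE is a Wald error on the log2 scale. Sums of lists use TMM-scaled CPM of all members with deposited counts, tested or not. Coordinates come from a RefSeq table of Sscrofa11.1, in which 99.9% of symbols were found.

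The members and 35 gene lists (666 genes, 607 tested) were chosen with earlier results of these data known. Named by rule were 28 chosen genes, the 10 largest changes each way (mean log2 CPM of at least 3, adjusted p under 0.05, no overlap, no LOC entry) and, of each list, up to 6 members past the 2-fold rule or else 3 with the smallest p. Any other gene named was picked with its values known. The alternatives tried were other scalings and filters, DESeq2 1.42.0, limma 3.58.1 (voom, and trend on log2 of TPM plus 1 or 0.1), glmTreat, fewer libraries, a replicate block and leaving out each library. Counts were simulated with 200 genes changed between B and A and all others at equal levels in every group (17672 genes in the fit). Recovered were 73.0% of genes changed 1.5-fold, 80% of those changed 2-fold and 100% of those changed 4-fold. Of the calls at an adjusted p under 0.05, 11.0% were false. In the data 9307 of 18316 genes were called, far more than were changed in the simulation, so these rates need not carry over.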

Additional observations from a re-analysis of the deposited data

How the results depend on the processing

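Of the 9307 genes called, leaving out 1 library gave 8305 to 8456, and 4517 to 4590 higher with 3749 to 3871 lower. DESeq2 called 6233 genes, 3004 higher. A test against a 1.5-fold change (glmTreat) called 1684, 971 higher and 713 lower. Library totals alone gave 2384 higher and 8511 lower, with 1359 lower by at least 2-fold. On log2 of TPM, limma-trend called 3537 genes with a pseudocount of 1 (1012 higher, 2525 lower; at least 2-fold 546, 277 higher and 269 lower) and 3102 with 0.1 (895 higher, 2207 lower; at least 2-fold 720, 325 higher and 395 lower). The TPM fold lay -0.22 (median of 11335 genes) from the count fold. With library totals alone, 7 matrix glycoproteins were lower, and 0 contractile genes were higher there and on TPM; on TPM 1 adipocyte marker was higher. MMRN2 had a log2 fold change of -0.21 with library totals alone, and SYNM of -0.061 there and of -0.030 on TPM with either pseudocount. RPL10 (-0.12), RPL11 (-0.14) and SOX9 (-0.16) changed sign there too, and on TPM RPL10 was at -0.068 and RPL11 at -0.080. The replicate block gave 10406 genes, and the 6 libraries without it 10434; same-numbered libraries did not deviate together (correlations of 0.004, -0.001 and -0.001), so the numbers were not taken as pairs. Of 4279 values of 238 genes named or ranked, 4008 kept their side of the threshold, and the called ones among them kept direction. The call was lost for 193, most of them on TPM, and gained for 67. The remaining 11 changed sign where at least 1 of the 2 fits made a call. Leaving out 1 library ended the call of 14 genes: PLN, BGLAP (without A 1, adjusted p 0.0573) and CXCR2 (without A 3, 0.0704) for 1 library each, and for 3 to 6 of the libraries SPHK1 (up to 0.0714), CA9 (0.0749), RPL10 (0.0797), EMILIN1 (0.0915), P4HA2 (0.0997), MFAP2 (0.137), HSPA1L (0.143), FOSL1 (0.151), RPL11 (0.153), COL24A1 (0.171) and HSPE1 (0.225). Of 1400 counts of list members, 1244 stayed within 1.5 times and 156 did not, 110 of these on TPM or with library totals alone. That tally leaves out B against A for the immediate early, fibrillar collagen, matrix glycoprotein, contractile and adipocyte lists. For those lists it holds only the counts against normal. On TPM with a pseudocount of 1 the members called higher were 11 inflammatory, 6 MAP kinase feedback, 7 growth-factor induced, 3 heat shock, 7 collagen processing, 6 TGF-beta, 8 resting fibroblast, 4 lymphocyte, 1 neutrophil and 1 nitric oxide and cyclic nucleotide gene. Counts limit IL1B, CXCL8, AREG, MYH7 and the adipokines. The p-values of the main fit rest on 3 libraries a group and on a spread shared by all 5 groups. The libraries of A and of B differ very little, with a biological coefficient of variation of 2.35% and 2.16%, against 13.7% in defect. No batch is given.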

Other observations

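Lists of other processes held members higher and lower in implantation B than in implantation A. Of 24 hypoxia and glycolysis genes, 17 were higher in B, against 27.2% of all genes, and CA9, PFKFB4 and ALDOC were lower. The median log2 fold change of the list was 0.30, and with library totals alone 9 were higher and 7 lower. SLC2A3, the high-affinity glucose transporter, stood at 47.1 ± 2.91 CPM in A and 313 ± 3.22 CPM in B (SD, n = 3; log2 2.73), while ALDOC, an aldolase, was lower (-1.24). Of 25 proliferation genes, 11 were lower, against 23.6% of all genes, 2 were higher (MCM6 and NUSAP1) and 12 did not pass. With DESeq2 4 were lower. TOP2A was at -0.38 and AURKB at -0.48. Of 25 interferon response genes, 9 were higher and 6 lower, shares not far from the 27.2% and 23.6% of all genes, and with library totals alone 3 were higher and 13 lower.

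Ribosomal protein genes were higher for 3 of 25 (RPL10, RPL11 and RPL15), against 27.2% of all genes, and lower for 7, against 23.6%. With library totals alone 1 was higher and 24 lower. Of 19 nuclear respiratory chain genes, 7 were higher, against 27.2% of all genes, and 2 lower (NDUFA2 and SDHA), against 23.6%. With library totals alone 1 was higher and 9 were lower. Of 23 cartilage and tendon genes, 13 were higher, against 27.2% of all genes, and 4 lower, against 23.6%. MKX, a tendon transcription factor, was higher by 1.71 on the log2 scale and CHAD, chondroadherin, by 1.58, while MATN4 (-1.66), COL9A2 (-1.63), TNMD (-1.18) and BGLAP (-0.79) were lower. SOX9, the cartilage transcription factor, did not pass (0.09). HBB, β-globin, was lower in B at 1.32 ± 0.495 CPM against 3.84 ± 0.256 CPM in A (SD, n = 3), and ALAS2 and the other erythroid genes but SLC4A1 had too few counts to be tested.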
